A study of Mus musculus with 8 samples.

Results

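Induced pluripotent stem (iPS) clones of 2 kinds were compared, the 2 made with Oct4, Klf4 and Sox2 (3 factors, 3F) and treated with IL6 at 10 ng/mL, and the 2 made with 4 factors (4F). These are 4 of the 8 libraries of the study, chosen by their labels. All 4 clones were of the BALB/c background and each was derived independently of the others, so a library stands for 1 clone. The 3F+IL6 clones came from mouse embryonic fibroblasts, and the origin of the 4F clones is not stated in the labels. The other libraries are 2 of D3-GFP embryonic stem (ES) cells, of the 129S2/SvPas background, and 2 of BALB/c mouse embryonic fibroblasts (MEF), which are given as reference levels. 4F is the usual name for Oct4, Klf4 and Sox2 with c-Myc. The factor set and IL6 change together between the kinds of clone and cannot be told apart, and neither the timing of the IL6 treatment nor the way the factors were delivered is given in the sources used here. The comparison asks in which genes clones made with 3 factors and IL6 differ from clones made with 4 factors.

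As background, reprogramming returns a fibroblast to a state like that of the early embryo, in which it can form every tissue. c-Myc speeds this process and drives growth and proliferation, and is also an oncogene. IL6 is a secreted cytokine that binds its receptor together with the shared subunit gp130, which activates the kinase JAK and the transcription factor STAT3. LIF, the cytokine that holds mouse ES cells in the naive state, acts through the same subunit. Mouse pluripotent cells range from that naive state, which resembles the blastocyst before implantation, to a primed state, which resembles the epiblast after implantation.

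The labelled cell type held for all 4 clones. The summed level of 8 pluripotency markers was 5536 and 4973 RPKM (reads scaled to transcript length and to the size of the library) in 3F+IL6 clones 1 and 2, 6110 and 6014 in 4F clones 1 and 2, and under 10 in MEF. Markers of fibroblasts were present in all 4 clones, and their sum moved with the comparison. Over 12 such markers it was 217.6 and 315.8 RPKM in 3F+IL6, 199.2 and 171.2 in 4F, 6.68 and 6.62 in ES cells, and in the MEF libraries 3244 and 3230. None of the 12 was at 0 in any clone. In both 3F+IL6 clones 7 of the 12 were higher than in both 4F clones and 0 were lower, beside 26.4% and 20.5% of all mRNA tested. In bulk RNA, fewer cells of a type and less RNA per cell cannot be told apart. Estimated depth was 11800000 to 14300000 reads per clone. Of the 23389 symbols, 12005 reached 1 RPKM in at least 2 of the 4 clones, of which 11873 were mRNAs or long non-coding RNAs, counted together as mRNA here, and 132 were RNAs without a poly-A tail, which are reported apart. An RNA under 1 RPKM in both clones of a kind passed only through the other kind, so this filter fixed its direction. Counts below include such RNAs.

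Over mRNA the kinds of clone differed little. Levels were compared as log2(RPKM + 1), on which a difference of 1 is a doubling, and a fold from it is too small where a gene is weakly expressed. Both 3F+IL6 clones were above both 4F clones in 3132 mRNAs (26.4% of those tested) and below both in 2437 (20.5%). The balance turned with median centring, to 2640 higher and 3042 lower, and was 2861 and 2704 with quantile normalization, so these shares are reference values of the deposited scale and not a shift of all mRNA. Without 3F+IL6 clone 1 the counts were 5865 and 4162, without 3F+IL6 clone 2 4471 and 4322, and without 4F clone 2 4714 and 3542, since fewer clones have to separate. With group means also at least 1 apart, 28 were higher (0.236%) and 12 lower (0.101%). limma, fitted to the 4 clones over all 12005 genes with Benjamini-Hochberg adjustment, called 17 genes (0.142%) at an adjusted p under 0.05, while 1401 had an unadjusted p under 0.05. The 17 were a single mRNA (0.00842% of mRNA), Pim2, and 16 RNAs without a poly-A tail. The verbs rose and fell are used below only for these 17. For any single gene, 2 clones against 2 cannot give a two-sided permutation p below 0.333, so the counts of genes that do not overlap are a description. The count of 28 was 170 without 3F+IL6 clone 1 and 11 without clone 2, and the count of 12 was 44 without 3F+IL6 clone 1. The limma count ran from 4 (without 4F clone 2) and 7 (without 4F clone 1) to 165 (without 3F+IL6 clone 2) and 2019 (without 3F+IL6 clone 1).

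**Figure D1:**
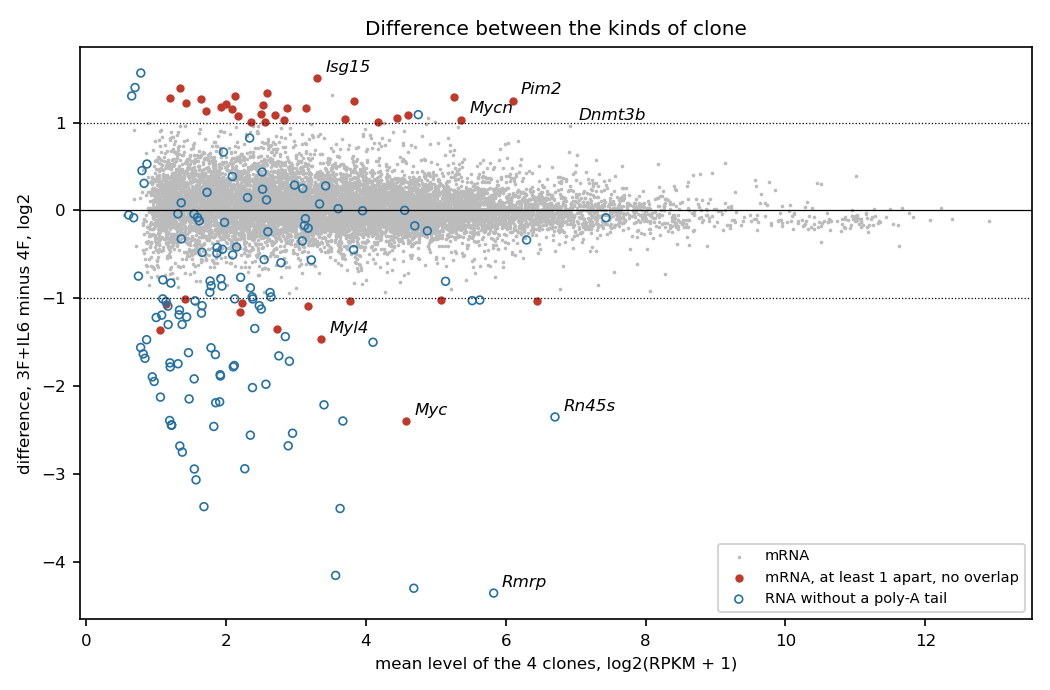
Difference between the kinds of clone, 3F+IL6 minus 4F in log2 units, against the mean level of the 4 clones in log2(RPKM + 1), for 12005 genes. Grey points are mRNAs, red points the 40 mRNAs at least 1 apart without overlap (28 higher and 12 lower), and open blue circles the 132 RNAs without a poly-A tail, most of which lie below 0; dotted lines mark a difference of 1.

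Pim2 was the mRNA that rose, though with no filter on level limma called 0 genes. Pim2 (chrX:7878262-7883432 of mm10) encodes a serine/threonine kinase that promotes survival and protein synthesis. It was measured at 101 and 108 RPKM in 3F+IL6, 43.1 and 43.7 in 4F, 7.66 and 7.37 in the ES libraries, and 2 and 1.93 in those of MEF. The 3F+IL6 clones were above every other library, and the 4F clones were above ES cells and MEF. The group means were 105 ± 5.25 and 43.4 ± 0.45 RPKM (SD, n = 2). They differed by 1.25 on the log2 scale (SE 0.09; adjusted p = 0.014 by limma), or 2.38-fold. Without 4F clone 1 the adjusted p was 0.095 and without 4F clone 2 it was 0.11, at differences of 1.24 and 1.26. The related kinases Pim1 and Pim3, both known targets of STAT3, went the other way. Pim1 was at 59.4 and 54 RPKM in 3F+IL6 and 76 and 71.4 in 4F, and Pim3 at 55.5 and 59.2 against 77.3 and 63.2. Both were lower in 3F+IL6 without overlap (−0.37 and −0.28), and neither was called.

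Myc had the largest gap of any mRNA that was lower in 3F+IL6 clones and had a mean of at least 5 RPKM in the higher kind, the gap being the distance between the nearest clones of the 2 kinds. It was measured at 5.09 and 16.8 RPKM in 3F+IL6, 53 and 54.6 in 4F, 20.9 and 20.4 in ES cells and 62.4 in both MEF libraries. The 4F clones were near MEF, and both 3F+IL6 clones were below ES cells, clone 1 further than clone 2. The difference of −2.39 (SE 0.46; limma adjusted p = 0.23) did not pass the threshold. Reads of a delivered Myc and of the cell's own gene are not separated in these values. Mycn, the relative that early embryonic cells use, ran opposite, with 43.1 and 76.9 RPKM in 3F+IL6 and 27.2 and 28.1 in 4F (1.03; adjusted p = 0.32). It was at 29.7 and 29.6 in ES cells, so both 3F+IL6 clones and neither 4F clone were above ES cells. Their partner Max differed by less than the spread between clones (38.5 and 40.8 against 36.7 and 42.3 RPKM). The repressors that compete for Max were mixed, with Mnt higher (10.7 and 10.5 against 8.8 and 8.15) and Mga and Mxi1 lower in 3F+IL6 without overlap (−0.23 and −0.13).

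Genes that MYC is known to activate had a median difference near 0. Of 35 targets, 4 were higher and 10 lower in 3F+IL6 without overlap (11.4% and 28.6%, beside 26.4% and 20.5% of all mRNA), and limma called 0, 4 having an unadjusted p under 0.05. The median difference over the list was −0.01, beside 0.03 for all mRNA, with 0.05 without 3F+IL6 clone 1 and −0.09 without clone 2. Among those lower was Fbl, the rRNA methyltransferase fibrillarin, at 326 and 335 RPKM in 3F+IL6 and 373 and 376 in 4F. Also lower was Tert, the catalytic subunit of telomerase, at 5.33 and 3.86 against 6.51 and 5.91. Among those higher were the cyclin gene Ccnd2, at 5.48 and 9.94 against 3.88 and 4.08, and Cdk4, its partner kinase, at 357 and 388 against 326 and 308. Of proliferation genes, 5 of 27 in the cell cycle list were higher and 3 lower (18.5% and 11.1%, both below the share of all mRNA), with a median of −0.04.

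**Figure D2:**
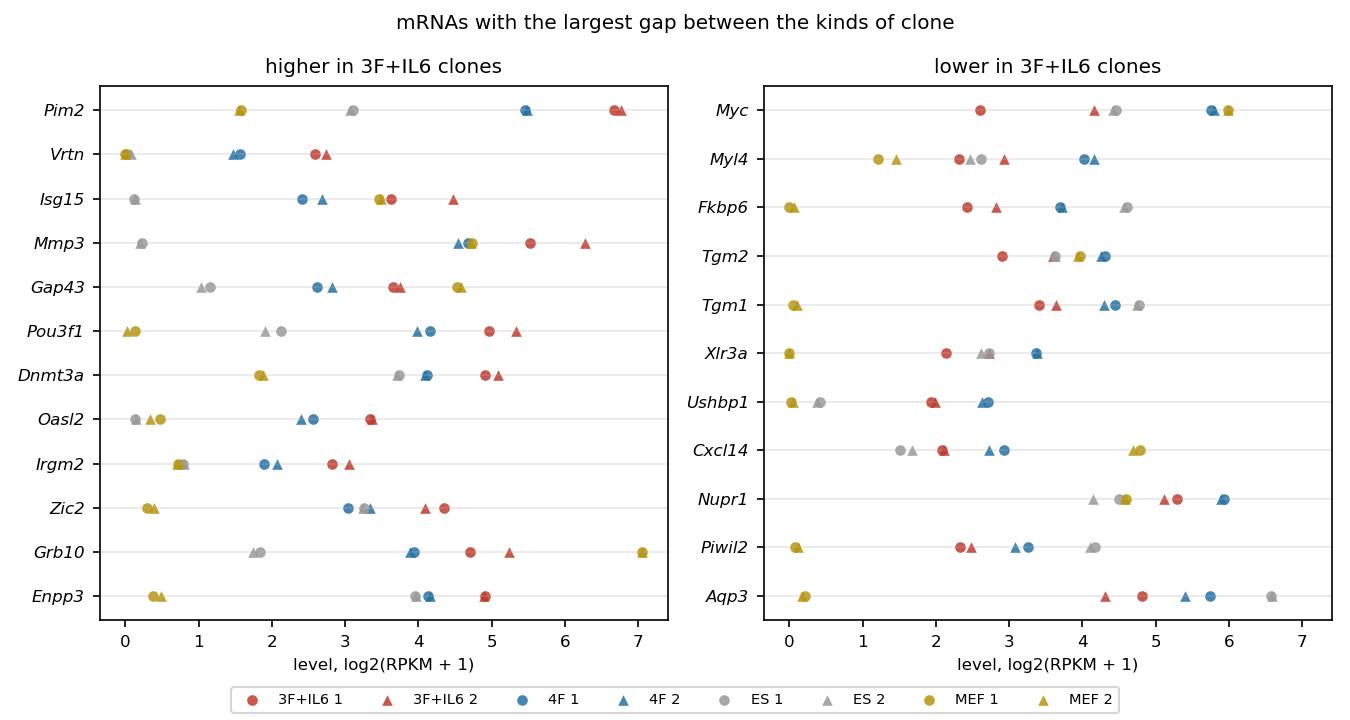
Levels in log2(RPKM + 1) of mRNAs with the largest gap, 12 higher and 11 lower in 3F+IL6, among those with a mean of at least 5 RPKM in the higher kind of clone; circles are library 1 and triangles library 2 of each group. On every line the red 3F+IL6 points and the blue 4F points do not overlap, by the choice of these genes, while the ES and MEF points fall on either side.

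Most genes of the primed pluripotent state were higher in 3F+IL6 clones. Of 17 tested, 15 were higher without overlap and 0 lower (88.2%, beside 26.4% of all mRNA), with a median difference of 0.79. limma called 0 of them and 13 had an unadjusted p under 0.05. Dnmt3b, a de novo DNA methyltransferase, was at 142 and 199 RPKM in 3F+IL6, 86.4 and 85.2 in 4F, and 24 and 22.8 in ES cells. The 3F+IL6 clones were above the 4F clones and both kinds were above ES cells (0.96 between the kinds, SE 0.16; adjusted p = 0.2). Dnmt3a, the second enzyme of that type, was at 29.1 and 32.9 against 16.3 and 16, with ES cells at 12.3 and 12.1 (0.90, SE 0.11; adjusted p = 0.096). The maintenance enzyme Dnmt1 (82.9 and 81.2 against 78.2 and 78.1 RPKM) and the demethylating dioxygenases Tet1, Tet2 and Tet3 lay between −0.06 and 0.20 in their differences. The cofactor Dnmt3l overlapped, at 184 and 118 against 170 and 156 RPKM.

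Transcription factors of the epiblast were also higher in 3F+IL6, with ES levels that differed from gene to gene. Pou3f1, also known as Oct6, was at 30.3 and 39.2 RPKM in 3F+IL6, 16.8 and 14.8 in 4F and 3.38 and 2.74 in ES cells. Otx2, which with Oct4 opens enhancers of the primed state, was at 49.3 and 43.9, then 27.1 and 27.5, then 2.95 and 3.37. Zic2 was at 19.4 and 16.1 against 7.19 and 9.09, with ES cells inside the 4F range. In these genes clone 1 and clone 2 of 3F+IL6 were about equally far from 4F, whereas the growth factor gene Fgf5 was at 1.59 and 5.45 against 0.646 and 0.478 RPKM, and Foxd3 at 4.84 and 19.5 against 3.4 and 4.36. Fgf5 was under 1 RPKM in both 4F clones, so the filter fixed its direction, and it is counted among the primed genes that were higher. In ES cells Foxd3 was at 12.7 and 11.6, above both 4F clones and 3F+IL6 clone 1. Lef1, an effector of Wnt signalling, was at 7.53 and 5.34 against 3.21 and 2.8. Fgf8 was among the members that overlapped. The median was 0.62 for 3F+IL6 clone 1 alone and 0.91 for clone 2 alone, each against the 4F mean. Vrtn, a DNA-binding protein of vertebral patterning that was not on the list, had the second largest gap of the mRNAs that were higher, at 5.03 and 5.69 against 1.97 and 1.76 RPKM, with ES cells and MEF under 0.1. Of 17 genes of Nodal and BMP signalling, 6 were higher, 2 lower (35.3% and 11.8%) and 9 overlapped; limma called 0, and 4 had an unadjusted p under 0.05. Lefty1, a Nodal antagonist that Nodal itself induces, was at 67.5 and 85.8 against 44.6 and 48.4, and Nodal at 21.8 and 24.1 against 18.2 and 19.4, while Lefty2 overlapped, at 90.7 and 184 against 92.4 and 113, and Pcsk6 was lower, at 9.39 and 11.2 against 11.8 and 12.5.

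The naive genes did not shift in the opposite way as a group. Of 16, 3 were higher and 3 lower without overlap (18.8% in each direction, beside 26.4% and 20.5% of all mRNA), and the median was −0.08. That median was 0.12 without 3F+IL6 clone 1 and −0.22 without clone 2, so its sign depends on the clone. limma called 0 and 5 had an unadjusted p under 0.05. Tfcp2l1, a transcription factor downstream of LIF, was at 18.4 and 17.4 RPKM in 3F+IL6 and 27.3 and 26.9 in 4F, with ES cells above both kinds at 34.1 and 35.1. Esrrb (58.2 and 68.6 against 77.3 and 77.7) and Nanog (131 and 151 against 169 and 181) were also lower without overlap, and both were higher still in ES cells. Klf2 was the reverse, at 50.8 and 38.3 against 34.8 and 31.2, as was Gbx2, at 7.75 and 17.2 against 5.55 and 6.45. Klf4, one of the delivered factors, split the 3F+IL6 clones, with 24.8 and 54.8 RPKM around the 49.2 and 48.3 of the 4F clones. The other factors of the 3F set did not separate the kinds, with Pou5f1, the gene of Oct4, at 1000 and 1010 against 1000 and 940 RPKM, and Sox2 at 162 and 182 against 164 and 177. Tcl1, a coactivator of the kinase AKT, was the member of the 22 general pluripotency genes with the largest gap, at 20.7 and 33.5 against 47.8 and 51.9. Of those 22, 7 were higher and 5 lower (31.8% and 22.7%), near the 26.4% and 20.5% of all mRNA.

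Genes induced by interferon, the antiviral cytokine, were more often higher than lower in 3F+IL6 clones. Of 33 tested, 19 were higher and 1 lower without overlap (57.6% and 3.03%, beside 26.4% and 20.5%), with a median of 0.33. Among the 19, Ifit3 and Ifi44 were under 1 RPKM in both 4F clones, so the filter fixed their direction. limma called 0 and 14 had an unadjusted p under 0.05. The median was 0.25 for 3F+IL6 clone 1 and 0.48 for clone 2 against the 4F mean. Isg15, a ubiquitin-like protein that is joined to other proteins in infected cells, was at 11.4 and 21.2 RPKM in 3F+IL6, 4.34 and 5.44 in 4F, 0.0875 and 0.0919 in ES cells, and in the MEF libraries 10 and 10.2. MEF lay between the kinds of clone, and the kinds differed 2.83-fold on the log2(RPKM + 1) scale (SE 0.28 in log2 units; adjusted p = 0.23). Oasl2, a member of the oligoadenylate synthetase family, was at 9.09 and 9.28 against 4.91 and 4.26 RPKM, with MEF at 0.389 and 0.259. Usp18, the protease that removes Isg15, was at 5.06 and 7.65 against 2.82 and 2.38, with MEF at 0.983 and 1.33. The transcription factor Irf1 was at 49.4 and 49 against 33 and 33.4, with MEF at 4.68 and 4.55. In Oasl2, Usp18 and Irf1 all 4 clones were above MEF and ES cells.

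Irgm1, Irgm2 and Tgtp1 are immunity-related GTPases that were not on that list, and no list of such genes was counted. Irgm1 was at 15.9 and 27.1 RPKM in 3F+IL6, 6.91 and 9.69 in 4F and 6.46 and 7.09 in MEF, and Irgm2 at 6.08 and 7.31, 2.72 and 3.18, and 0.641 and 0.635. Tgtp1 was at 1.13 and 2.19 against 0.388 and 0.225 and had a difference of 1.00, just outside the threshold of 1 that Lum (1.01) was just inside. As Tgtp1 was under 1 RPKM in both 4F clones, the filter fixed its direction. Of 9 genes of MHC class I presentation, 8 were higher without overlap and 0 lower (88.9%, beside 26.4% of all mRNA), with a median of 0.47. limma called 0 and 5 had an unadjusted p under 0.05. B2m, Tap1, Psmb8 and Psmb9 are also on the interferon list, so the counts of these lists are not separate. The gaps of Psmb9 and H2-D1 were only 0.01 and 0.03. Psmb8, a subunit of the immunoproteasome that makes the presented peptides, was at 22.6 and 19.1 against 13 and 11.5 RPKM. B2m, the light chain of class I molecules, was at 198 and 292 against 182 and 157, with MEF at 281 and 278. Tap1, which carries the peptides, overlapped.

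The promoters of Isg15, Irgm1 and Irgm2 are shown because these genes were higher in 3F+IL6 by at least 0.96 without overlap and hold the element that interferon-activated factors bind, the interferon-stimulated response element (ISRE). The sequences run from 250 bases before to 50 after a listed transcript start, 5′ to 3′ on the strand of the gene. They are RefSeq sequence of GRCm38.p6, the C57BL/6J reference, whereas the cells were BALB/c. For Irgm1 and Irgm2 the window lies inside the gene span of GENCODE M21 (chr11:48861968-48871683 and chr11:58199618-58222782). The start used there is thus not the outermost start of the gene. They are Isg15 at chr4:156200769-156201068 (minus strand), Irgm1 at chr11:48871371-48871670 (minus strand) and Irgm2 at chr11:58214727-58215026 (plus strand). Capitals mark 2 copies of GAAA with 2 bases of any kind between them, found on either strand.
Isg15: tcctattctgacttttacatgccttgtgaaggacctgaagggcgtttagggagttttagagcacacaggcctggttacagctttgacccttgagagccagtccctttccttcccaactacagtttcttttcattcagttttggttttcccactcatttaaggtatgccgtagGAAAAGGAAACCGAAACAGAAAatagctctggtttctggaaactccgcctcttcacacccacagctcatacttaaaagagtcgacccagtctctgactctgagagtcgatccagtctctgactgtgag
Irgm1: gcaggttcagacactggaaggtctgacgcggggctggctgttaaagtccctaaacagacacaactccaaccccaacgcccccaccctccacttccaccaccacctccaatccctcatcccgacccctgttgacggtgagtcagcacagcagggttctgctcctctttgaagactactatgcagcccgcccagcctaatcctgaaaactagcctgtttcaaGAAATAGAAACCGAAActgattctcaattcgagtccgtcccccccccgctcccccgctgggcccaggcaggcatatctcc
Irgm2: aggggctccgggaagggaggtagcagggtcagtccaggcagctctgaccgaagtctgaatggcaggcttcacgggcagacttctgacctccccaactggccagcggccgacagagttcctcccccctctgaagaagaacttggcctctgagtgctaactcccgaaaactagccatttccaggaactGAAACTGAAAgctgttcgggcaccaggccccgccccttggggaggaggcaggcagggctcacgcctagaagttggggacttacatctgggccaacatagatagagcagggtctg
In Isg15, 3 overlapping matches began 78, 72 and 66 bases before the start, in Irgm1 2 overlapping matches 30 and 24 bases before it, and in Irgm2 1 match 64 bases before it. Of the interferon genes tested, 26 had a promoter in the table and 12 of them (46.2%) held the letters, beside 3.44% of all 32851 promoters. They were in 7 of the 16 matched genes that were higher in 3F+IL6 and in 5 of the other 10, a similar share of each. The matched promoters of Oasl2 and Psmb8 did not hold them in this window.

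The IL6 pathway itself did not move in a single direction. Of 21 tested genes for ligands, receptors, kinases, STAT factors and inhibitors, 3 were higher and 8 lower in 3F+IL6 without overlap (14.3% and 38.1%, beside 26.4% and 20.5%). The median was −0.06, limma called 0, and 3 had an unadjusted p under 0.05. Among ligands, Il6 was at 1.96 and 3.68 RPKM in 3F+IL6 and 0.635 and 2.01 in 4F, which overlapped. The IL6 receptor gene Il6ra was low in all 4 clones, from 0.176 to 0.663 RPKM, and in ES cells at 2.55 and 2.68. The shared subunit Il6st was at 11.6 and 13 against 10.1 and 9.65, and the LIF receptor Lifr was lower, at 2.84 and 2.78 against 3.88 and 4.09. Of the kinases, Jak1 was at 15.8 and 15 against 16.1 and 16.6. Stat3 was at 23 and 21.7 against 26.4 and 24.6, and Stat5a and Stat5b were also lower without overlap (−0.43 and −0.31). Socs3, the feedback inhibitor that STAT3 induces, was at 45.8 and 38.6 against 56.6 and 50.8, also lower without overlap, with ES cells at 57.9 and 55.2.

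Of 15 genes known as STAT3 targets in pluripotent cells, 4 were higher and 4 lower (26.7% in each direction), near the 26.4% and 20.5% of all mRNA; limma called 0, and 5 had an unadjusted p under 0.05. The 4 lower were Socs3, Tfcp2l1, Pim1 and Pim3. The 4 higher were Gbx2, Spry2, Junb and Bcl3, where Spry2, an inhibitor of growth factor signalling, was at 15.4 and 25.4 against 9.6 and 11.7 RPKM. The median was −0.09, but 0.05 without 3F+IL6 clone 1 and 0.07 without clone 2. The STAT motif TTCNNNGAA, which reads the same on both strands, was in 8.3% of all promoters, in those of Cish and Socs3 of the 19 matched pathway genes, and in 0 of the 3 Pim genes.

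**Figure D3:**
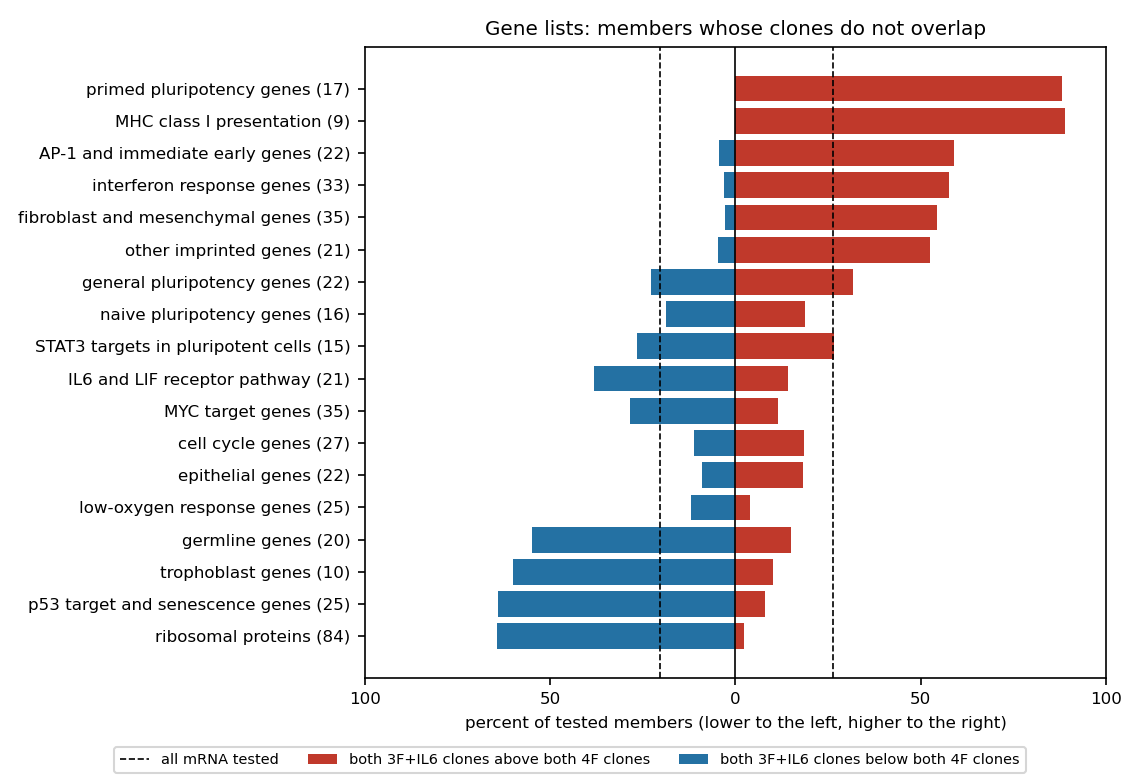
Percent of the tested members of 18 gene lists in which both 3F+IL6 clones were above both 4F clones (red, to the right) or below both (blue, to the left), with the number tested in brackets. Dashed lines mark all mRNA, 26.4% higher and 20.5% lower; primed genes reach 88.2% to the right and ribosomal proteins 64.3% to the left.

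Fibroblast and mesenchymal genes were higher in 3F+IL6 mostly through clone 2. Of 35, 19 were higher and 1 lower without overlap (54.3% and 2.86%), limma called 0, and 8 had an unadjusted p under 0.05. The median was 0.35, made of 0.13 for 3F+IL6 clone 1 and 0.63 for clone 2 against the 4F mean. Mmp3, a matrix metalloproteinase, was at 45.1 and 76.4 RPKM in 3F+IL6, 24.7 and 22.3 in 4F and 25.7 and 25.4 in MEF, so both 3F+IL6 clones were above MEF. Dcn, the matrix proteoglycan decorin, was at 44.1 and 66.6 against 30.9 and 24.5, with MEF at 34.7 and 33.7. The collagen gene Col1a1 overlapped, at 51.4 and 71.6 against 55.7 and 47, with MEF at 1240 and 1230. Ratios between these genes thus differed from those of MEF, in which Col1a1 was far above Mmp3 and Dcn.

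Of the other genes past a difference of 1, 3 that encode secreted proteins of inflammation are given here, picked after their values were seen. The neutrophil chemokine Cxcl5 was at 7.95 and 18.8 RPKM in 3F+IL6, 3.95 and 6.07 in 4F and 36.2 and 35.7 in MEF. Lipocalin 2 (Lcn2), an iron-trapping acute phase protein, was at 4.06 and 8.32 against 2.46 and 1.25 and was listed at 0 in ES cells and MEF. The protease inhibitor Slpi was at 17 and 35.3 against 14.4 and 9.46. Saa3, another acute phase gene, chosen after its values were seen, was at 32.7 and 48.5 against 20.7 and 18.7, with MEF at 0.908 and 0.777 (0.98). Levels of Lcn2 and Saa3 in all 4 clones were thus above those of MEF. Of 22 AP-1 and immediate early genes, 13 were higher and 1 lower (59.1% and 4.55%), with a median of 0.36, limma called 0 and 10 had an unadjusted p under 0.05. This list also holds genes of growth factor signalling, and Dusp5, Dusp6, Spry2, Spred1 and Etv5 are among the 13. Fosl1, a component of AP-1, was at 3.83 and 3.36 against 1.77 and 1.99, and Jun at 11.4 and 12.4 against 9.34 and 8.26. Both were far higher in MEF (52.4 and 51 for Fosl1, 55.9 and 57.2 for Jun). Of the 28 mRNAs higher by at least 1, 3F+IL6 clone 2 was above clone 1 in 26, MEF was below all 4 clones in 16 and above all 4 in 4, and ES cells were below all 4 in 20. The fibroblast marker sum is also highest in clone 2, and its part in these differences, and in those of the primed and interferon genes, was not tested.

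Lists that lay lower in 3F+IL6 clones were those of p53 targets, germline genes, trophoblast genes and ribosomal proteins. Of 25 p53 target and senescence genes, 2 were higher and 16 lower (8% and 64%, beside 26.4% and 20.5%), with a median of −0.22, limma called 0, and 11 had an unadjusted p under 0.05. Cdkn1a, the cell cycle inhibitor p21, was at 65.3 and 60.7 RPKM in 3F+IL6 and 82.5 and 72.5 in 4F. Plk2, a polo-like kinase, was at 30.6 and 24.7 against 42.3 and 38.9, and Btg2, an antiproliferative factor, at 28.7 and 22.3 against 39.7 and 35.8. Trp53 itself was higher by a narrow gap, at 149 and 188 against 145 and 141. Cdkn2a, the locus of Ink4a and Arf, overlapped, at 32.9 and 40.7 against 44.9 and 39.

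Of 20 germline genes, 3 were higher and 11 lower (15% and 55%), with a median of −0.24, limma called 0, and 5 had an unadjusted p under 0.05. Fkbp6, a cochaperone of the piRNA pathway that guards germ cells against transposons, was at 4.37 and 6.07 RPKM in 3F+IL6, 12 and 12.2 in 4F and 23.4 and 22.7 in ES cells. Piwil2 and Mov10l1, further parts of that pathway, were lower as well, at 4.03 and 4.59 against 8.53 and 7.44, and 1.23 and 1.57 against 2.53 and 2.3. In each of the 3, both kinds of clone were below ES cells. Of 10 trophoblast genes, 1 was higher and 6 lower (10% and 60%, beside 26.4% and 20.5% of all mRNA). Their median was −0.41, which was −0.22 without 3F+IL6 clone 1 and −0.23 without clone 2. limma called 0 and 3 had an unadjusted p under 0.05. Esx1, a placental homeobox gene, was at 1.59 and 1.1 against 2.97 and 3.14, and Tfap2c at 12.9 and 6.92 against 16.1 and 15.4. Of 84 ribosomal protein genes, 2 were higher and 54 lower (64.3%), but the median was only −0.12, and with quantile normalization it was −0.03 with 21 lower. The median was −0.19 without 3F+IL6 clone 1 and −0.06 without clone 2, limma called 0 and 5 had an unadjusted p under 0.05.

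Further genes with a large gap on the lower side were of mixed function. Myl4, an atrial myosin light chain, was at 4 and 6.63 RPKM in 3F+IL6, 15.3 and 16.8 in 4F and 5.11 and 4.52 in ES cells (−1.46, SE 0.21; adjusted p = 0.14). The 4F clones were the high group there, with 3F+IL6 near ES cells. The transglutaminases Tgm2 (6.49 and 11.1 against 18.8 and 18.1) and Tgm1 (9.58 and 11.5 against 20.7 and 18.6) both cross-link proteins. The water channel Aqp3 was at 27 and 18.8 against 52.6 and 41.3, with ES cells above all clones. Nupr1, a stress-induced nuclear protein, was at 38.1 and 33.6 against 60 and 58.4, and the X-linked homeobox gene Rhox5 at 44.1 and 81.3 against 117 and 131. On the higher side Grb10, an imprinted adaptor of growth factor receptors, was at 25 and 36.8 against 14.4 and 13.8, with MEF at 132 in both libraries. Gap43, a growth cone protein, was at 11.6 and 12.4 against 5.13 and 6.06, and the ectonucleotidase Enpp3 at 29.1 and 28.9 against 16.6 and 16.8. Of the 12 mRNAs lower by at least 1, MEF was below all 4 clones in 9.

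The spread behind these comparisons was unequal, since the 3F+IL6 clones differed from each other more than the 4F clones did. By at least 1 log2 unit they differed at 137 mRNAs (1.15%), 56 higher in clone 1 and 81 in clone 2 (76 and 50 with median centring, which turns the balance), beside 15 (0.126%) between the 4F clones. Over mRNA the SD of the difference was 0.324 between the 3F+IL6 clones and 0.184 between the 4F clones. Taken singly, 3F+IL6 clone 2 was at least 1 above both 4F clones at 115 mRNAs and below both at 35, and clone 1 at 5 and 14. Clone 1 was thus closer to the 4F clones than clone 2 was. Across mRNA it also correlated better with 4F clones 1 and 2 (r = 0.9912 and 0.9913) than with 3F+IL6 clone 2 (r = 0.9850). By this measure the 3F+IL6 clones did not group together. The median of all mRNA against the 4F mean was 0.00 for clone 1 and 0.05 for clone 2.

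Genes induced by low oxygen set the 3F+IL6 clones apart. All 25 tested were higher in clone 1 than in clone 2, 20 by at least 0.5, with a median of 0.73. Of all mRNA, 40.6% were higher in clone 1 (3.53% by at least 0.5) and 59.4% in clone 2 (7.48% by at least 0.5), with a median of −0.06; with median centring 6338 of the 11873 were higher in clone 1 and the median was 0.02. With median centring and with quantile normalization all 25 were again higher in clone 1. Between the 4F clones 13 were higher in clone 1 and 12 in clone 2, with a median of 0.00. Adm, a vasodilator peptide, was at 48 and 14.4 RPKM in 3F+IL6 and 23.5 and 24.5 in 4F. Ndrg1 was at 114 and 38.7 against 86.5 and 74.6, and Bnip3, a mitophagy receptor, at 255 and 106 against 192 and 198. The glycolytic enzyme Pgk1 was at 1870 and 890 against 1700 and 1610. In each of these 4, clone 1 was above and clone 2 below both 4F clones, and over the list the kinds of clone overlapped in 21 of 25. Whether culture conditions differed between the clones is not given in the sources used here.

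**Figure D4:**
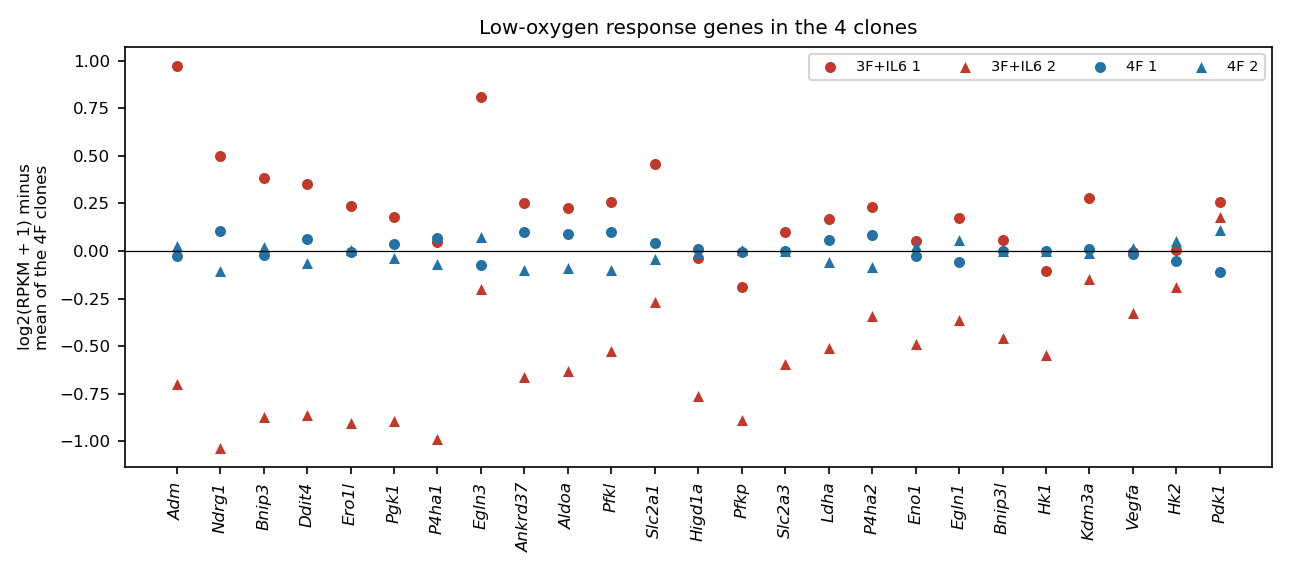
Level of 25 low-oxygen response genes in each clone, as log2(RPKM + 1) minus the mean of the 4F clones, ordered by the difference between the 3F+IL6 clones. For all 25 genes 3F+IL6 clone 1 (red circles) is above clone 2 (red triangles), while the 4F clones (blue) stay near 0.

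The single genes with the largest differences between the 3F+IL6 clones included Adm of that list. Higher in clone 2 were the chemokine gene Ccl2 (18.9 and 89.3 RPKM, with 19.3 and 19.7 in 4F), the hormone precursor Trh (39 and 169, with 46.4 and 49.3) and Mat2a, which makes S-adenosylmethionine (24.9 and 76.7, with 17.5 and 26). Higher in clone 1 were Ndufa4l2, also known to respond to low oxygen though not on the list (89.8 and 20.2, with 75.6 and 59.2), the neuronal enolase Eno2 (23.5 and 6.94, with 16.2 and 16.1) and the epithelial factor Elf3 (60.1 and 19.9, with 51.4 and 47.9). In Trh, Ccl2 and Mat2a clone 2 was the outlying clone, and in Ndufa4l2, Eno2 and Elf3 it was again clone 2 that lay outside the 4F range by more. Of 35 fibroblast genes, 34 were higher in clone 2 than in clone 1, 22 of them by at least 0.5, beside the 59.4% and 7.48% of all mRNA; the count was 32 with median centring and 33 with quantile normalization.

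RNAs without a poly-A tail differed far more than mRNA, and nearly all of those that separated the kinds were lower in 3F+IL6. Libraries were made from poly-A RNA selected on oligo-dT beads, so these RNAs enter only as far as they escape that selection. Of 132 tested, 82 were lower in both 3F+IL6 clones than in both 4F clones (62.1%) and 5 higher (3.79%), and by at least 1 log2 unit 62 were lower (47%) and 4 higher (3.03%). The count of 4 higher became 7 when 3F+IL6 clone 1 was left out and 8 when 4F clone 2 was. limma called 16 of them (12.1%), 15 lower and 1 higher, and 6 of the 16 had fewer than 4 estimated reads in every clone. In these 6 both clones with reads had nearly equal estimates, such as 2.15 and 2.16 for Mir3057 in 4F. Each may thus rest on a single read per clone, and a small SE there does not measure the spread between clones. Several of the 16, among them Scarna10, Hist1h4j and Hist1h4k, were at 0 in both 3F+IL6 clones. The 1 higher was at 0 in both 4F clones. Each such RNA passed the filter only through the other kind, which fixed its direction, and the counts above include such RNAs.

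The RNAs of 2 processing enzymes and the rRNA precursor are given first. Rmrp, the RNA of RNase MRP, which cuts the rRNA precursor, was at 17.4 and 7.58 RPKM in 3F+IL6 and 262 and 250 in 4F, a fall of 20.4-fold on the log2(RPKM + 1) scale (−4.35, SE 0.33; adjusted p = 0.02). Rpph1, the RNA of RNase P, which trims transfer RNA, was at 6.35 and 3.57 against 119 and 107 (−4.30, SE 0.22; adjusted p = 0.0091). Rn45s, the rRNA precursor, was at 41.2 and 49.6 against 230 and 239 (−2.35, SE 0.11; adjusted p = 0.0091). In a fit of all 8 libraries, in which the spread of the references enters, the adjusted p was 0.13 for Rmrp, 0.14 for Rpph1 and 0.12 for Rn45s, and for Rmrp it was 0.058 and 0.072 without 4F clone 1 and clone 2. These 3 also differed between replicate libraries of the references: their sum was 64.9 and 60.8 RPKM in 3F+IL6, 610.4 and 596.1 in 4F, 89.8 and 704.1 in the ES libraries, and 46.5 and 267.5 in those of MEF. Within the ES pair 58 of the 132 RNAs were at least 1 higher in library 2 and 13 in library 1, beside 21 and 23 in the same order within the 3F+IL6 pair and 19 and 10 within the 4F pair. In this sum the 3F+IL6 clones were near library 1 of ES cells and of MEF, and the 4F clones near library 2 of ES cells. Bc1, a small cytoplasmic RNA made by RNA polymerase III, went the other way, at 37.9 and 38.5 against 12.7 and 23.8 RPKM.

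**Figure D5:**
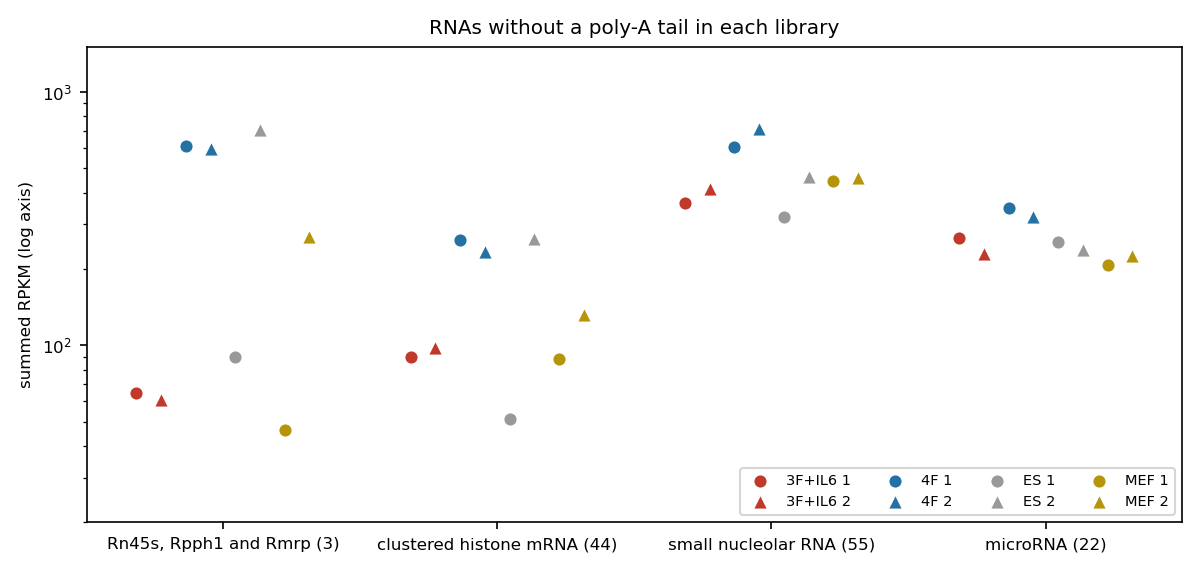
Summed RPKM, on a log axis, of RNAs without a poly-A tail in each library, by class with the number of RNAs in brackets; circles are library 1 and triangles library 2 of each group. For Rn45s, Rpph1 and Rmrp the 3F+IL6 libraries (64.9 and 60.8) are near ES library 1 (89.8) and MEF library 1 (46.5), and the 4F libraries (610.4 and 596.1) are near ES library 2 (704.1).

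Small nucleolar RNAs (snoRNAs), which guide chemical modification of rRNA and are cut from introns of host genes, had 29 of 55 members lower and 3 higher without overlap (52.7% and 5.45%), and microRNAs 10 of 22 lower and 1 higher (45.5% and 4.55%). Sequences of snoRNAs are shown because 2 of them can be set beside their host. Snord95 and Snord96a lie in introns of Gnb2l1, the gene of the ribosomal scaffold protein RACK1 (chr11:48800360-48806241 of mm10), at chr11:48803139-48803206 and chr11:48802032-48802112, on the plus strand. Their sequences, from GENCODE M21, carry box C and box D, the protein-binding boxes of this class, in capitals.
Snord95: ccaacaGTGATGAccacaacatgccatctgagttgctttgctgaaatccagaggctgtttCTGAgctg
Snord96a: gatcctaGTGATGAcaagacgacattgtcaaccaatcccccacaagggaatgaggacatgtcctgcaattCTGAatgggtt
Snord95 was at 4.03 and 3.79 RPKM in 3F+IL6 and 18.3 and 25.8 in 4F and fell by 2.21 on the log2 scale (SE 0.18; adjusted p = 0.024). Snord96a was at 32.2 and 35.4 against 73.1 and 65.9 and fell by 1.02 (SE 0.10; adjusted p = 0.047). Without 4F clone 1 and clone 2 the adjusted p was 0.058 and 0.11 for Snord95 and 0.48 and 0.21 for Snord96a. The host Gnb2l1, chosen after its values were seen, was at 1880 and 1680 against 2000 and 1810 RPKM, which overlapped. The snoRNAs thus differed where the spliced host mRNA did not separate the kinds. Snord95 rests on 3.67 and 3.68 estimated reads in the 3F+IL6 clones. Scarna10, a Cajal body RNA, was at 11.8 and 7.37 RPKM in 4F and listed at 0 for each 3F+IL6 clone, with 45.1 and 30.2 estimated reads in the 4F clones.

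Clustered histone genes make mRNA that ends in a stem-loop in place of a poly-A tail. Of 44 tested, 35 were lower in 3F+IL6 without overlap and 0 higher (79.5%), with a median of −1.18. By at least 1, 27 were lower (61.4%). These counts include members under 1 RPKM in both 3F+IL6 clones, among them Hist1h2bk, Hist1h4j and Hist1h4k. Such members passed the filter only through the 4F clones, so their direction was fixed by it. limma called 3 (6.82%), and 33 had an unadjusted p under 0.05. The 3 were Hist1h4f, Hist1h4j and Hist1h4k. Hist1h4f was at 1.09 and 0.857 RPKM in 3F+IL6 and 7.07 and 5.55 in 4F, and fell by 1.88 (SE 0.17; adjusted p = 0.035). Hist1h4j was at 2.47 and 2.97 and Hist1h4k at 4.57 and 6.37 in 4F, and both were listed at 0 for each 3F+IL6 clone. Without 4F clone 1 and clone 2 its adjusted p was 0.24 and 0.12, that of Hist1h4j 0.095 and 0.14, and that of Hist1h4k was 0.072 without 4F clone 2. The sum of the 44 was 90.1 and 97.46 RPKM in 3F+IL6, 259.2 and 233.2 in 4F, 51.25 and 261.7 in the ES libraries, and 88.44 and 131.5 in those of MEF. As for Rmrp and Rpph1, the 4F libraries and ES library 2 were the highest. The cell cycle list above, which holds mRNA with a poly-A tail, had a median of −0.04, and a link between it and the histone genes was not tested. Near-identical histone genes can share reads, so single histone values are uncertain. The stem-loops of 3 of these genes are shown in capitals with their flanking bases, whose arms pair with each other, from GENCODE M21 transcripts on mm10. Hist1h2bk spans chr13:22035870-22036345 (plus strand), Hist1h4f chr13:23551258-23551648 (minus strand) and Hist1h4j chr13:21735064-21735837 (plus strand).
Hist1h2bk: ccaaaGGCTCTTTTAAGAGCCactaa
Hist1h4f: tcaaaGGCCCTTTTCAGGGCCaccca
Hist1h4j: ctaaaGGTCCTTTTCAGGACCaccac
Hist1h2bk, which was not called, was at 0.0548 and 0 RPKM in 3F+IL6 and 15.9 and 3.37 in 4F.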

How the data were processed

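Poly-A RNA from 8 libraries was sequenced as 50 base reads, from 500 ng of total RNA, per the labels' protocols and the series' design text. The authors deposited 1 value per symbol and library; no header names the unit, and the deposited values were read as RPKM because low values step at multiples that depend on transcript length. Of those low values 44.6% to 47.4% were whole within 0.1 read, so read counts could not be recovered and count tests were left out. The genome build was mm10, per the submitters' processing notes; which aligner, counter and gene models were used is not given in the sources used here. Depth was estimated from the step, and estimated reads cover counting error only. Estimated reads were computed from the full length of an RNA and may be too high for the shortest RNAs.

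Genes with at least 1 RPKM in at least 2 of the 4 clones were kept and log2(RPKM + 1) was fitted with limma 3.58.1 in R 4.3.3 (trended empirical Bayes, no block; 12005 genes, threshold 0.05). ES and MEF libraries stayed out of the fit. The median SE was 0.14 with 5.92 degrees of freedom. The p-values measure the spread between independently derived clones. Scripts ran in Python 3.11.15, and the fit was tested on simulated data.

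The groups, the gene lists and the rules were chosen with earlier results of these data known. The named genes are those with the 12 largest gaps per direction, every called gene, up to 6 non-overlapping members per list, any member of the pathway and factor lists, the 8 and 4 largest differences per direction within kinds, the 8 RNAs without a poly-A tail with the largest gap, and marker genes. Genes past 1 log2 unit, and other list members given as examples, were named after their values were seen, as were Saa3, Pgk1, Gnb2l1, Meg3, Rian, Bc1 and Tgtp1. RNAs without a poly-A tail were matched by symbol; Bc1 was added and microRNA host genes were removed after seeing the data. A few named genes are not reported here. Coordinates are mm10, 1-based, from GENCODE M21 or RefSeq; 268 symbols had no match and 25 had been turned into dates.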

Additional observations from a re-analysis of the deposited data

How the results depend on the processing

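The count of 28 mRNAs higher in 3F+IL6 was 101 with a pseudocount of 0.1 and 17 with a mean of at least 5 RPKM, and ran from 11 to 170 when 1 clone was left out. The count of 12 lower was 52 and 7 under the same settings and 16 to 44 without 1 clone. Of RNAs lacking poly-A, the 4 higher and 62 lower were 1 and 18 with a mean of at least 5 RPKM, and without 1 clone the 4 reached 7 and 8. The 17 limma calls were 0 with no filter (18672 genes tested, 1766 at an unadjusted p under 0.05), 6 with a mean of at least 5 RPKM, 195 in the fit of all 8 libraries, and 4 to 2019 without 1 clone. A lone clone is then assumed to vary like the pair of the other kind. With a replicate block limma called 32; the clone numbers only name the clones, and same-numbered clones deviated together with r = 0.145 across genes. Between clones of a kind, a pseudocount of 0.1 gave 330 mRNAs for 3F+IL6 (118 higher in clone 1 and 212 in clone 2) and 51 for 4F, and median centring 76 and 50 for 3F+IL6 in place of 56 and 81. The 3132 mRNAs higher without overlap ran from 4238 to 5865 and the 2437 lower from 3542 to 4322 without 1 clone. Counts by direction, and the low-oxygen and fibroblast lists within 3F+IL6, were recomputed after seeing the data. The other settings tried kept each of these counts within 1.5 times.

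Over 1071 values of named genes under an alternative, 890 kept their direction and side of the threshold, 135 passed it newly, 20 no longer passed and 26 changed sign. With 1 clone left out, those that changed sign ran over Adm (−0.70 to 0.97), Bnip3 (−0.87 to 0.39), Ccl2 (−0.04 to 2.14), Dnmt3l (−0.46 to 0.18), Elf3 (−1.28 to 0.27), Eno2 (−1.11 to 0.51), Fgf8 (−0.43 to 1.20), Klf4 (−0.95 to 0.17), Max (−0.09 to 0.11), Meg3 (−0.65 to 0.50), Ndrg1 (−1.03 to 0.50), Ndufa4l2 (−1.68 to 0.42), Pgk1 (−0.90 to 0.17), Rian (−0.48 to 0.85), Sox2 (−0.08 to 0.09), Tap1 (−0.46 to 0.13), Tet2 (−0.27 to 0.19) and Trh (−0.29 to 1.80). Median centring turned Max (−0.03) and Sox2 (−0.04), and quantile normalization Gnb2l1 (0.02). All of these overlapped between the kinds. The cause was not tested. Depth limits low values, since near 1 RPKM a short RNA rests on few reads.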

Other observations

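Imprinted genes are expressed from 1 parental copy. Of 21 outside the Dlk1-Dio3 domain, 11 were higher and 1 lower without overlap (52.4% and 4.76%, beside 26.4% and 20.5% of all mRNA), with a median of 0.23; limma called 0 and 10 had an unadjusted p under 0.05. The median was 0.35 for 3F+IL6 clone 1 and 0.24 for clone 2 against the 4F mean. Of the 11 higher, Snrpn and Snurf had the same difference (0.22) and the same gap (0.19), so they may not count separately. Mest was at 37.4 and 47.5 RPKM in 3F+IL6 and 29.8 and 28.6 in 4F, Ndn at 7.11 and 7.67 against 4.21 and 5.27, and Gnas at 85.4 and 85.6 against 70.7 and 62. In MEF Mest was lower (8.36 and 8.43), while Ndn (79.7 and 79.4), Gnas (320 and 317) and Grb10 (132 in both) were far higher, and Dcn is also a fibroblast marker. The summed fibroblast markers were 217.6 and 315.8 RPKM in 3F+IL6 and 199.2 and 171.2 in 4F, and their part in this count was not tested. In the Dlk1-Dio3 domain the non-coding RNAs Meg3 (4.72 and 1.58 against 2.52 and 3.65) and Rian (40.1 and 15.3 against 20 and 23.9) did not separate the kinds, and all 3 tested members were higher in 3F+IL6 clone 1 than in clone 2.

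Y-linked genes were near 0 in all 4 clones. Eif2s3y was at 0.337 to 0.674 RPKM in the clones, 36.9 and 36.8 in the ES libraries and 31.3 and 29.7 in those of MEF, and Ddx3y at 0.185 to 0.401, 11.3 and 11.8, and 21.4 and 21.7. Xist, the RNA that silences an X chromosome, was at 1.23 and 1.24 in 3F+IL6, 0.743 and 1.16 in 4F and under 0.1 in ES cells and MEF. The X-linked Klhl13 was at 79.1 and 102 against 107 and 121, with ES cells at 11.4 and 11.2. The median difference between the kinds over the mRNAs of a chromosome ran from 0.006 (chromosomes 6 and 9) to 0.045 (chromosome 5), with 0.015 on X. Against the 4F mean, X was at 0.055 for 3F+IL6 clone 1 and −0.020 for clone 2, whereas autosomes ran from −0.024 to 0.028 for clone 1 and from 0.016 to 0.087 for clone 2.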
